A study of Mus musculus with 10 samples.

Results

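The genes described here are 44 mouse genes whose products run mitosis, the stage at which a cell divides its copied chromosomes between daughter cells. They were taken as a list of symbols, and each was matched to its row of the deposited count table through its Ensembl identifier. All 44 were found among the 43432 genes of the table, and all 44 were among the 14172 genes that had enough counts to be tested. Every member was therefore kept, with 185 to 24769 counts in a library.

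The RNA came from RAW264.7 cells, an established line of mouse macrophages that divides in culture. Cells were seeded at 250000 per well, held for 1 h with compound **1** or with vehicle, and then given lipopolysaccharide (LPS), a bacterial cell wall component that activates macrophages. Compound **1** is a monounsaturated keto fatty acid isolated from marine cyanobacteria. RNA was collected at 12 h. The 5 groups held 2 libraries each. Resting cells received 0.5% DMSO and no LPS, and are called DMSO below. Here resting means without LPS, not without division. The DMSO + LPS group received 0.5% DMSO and LPS at 1 µg/mL. The other 3 groups received **1** at 32, 10 or 3.2 µM and the same dose of LPS, so no group received **1** without LPS. All libraries came from 1 cell line. The labels call the libraries of a group biological replicates without saying how the cultures were kept apart. The p-values below therefore test differences only against the spread between these libraries, pooled over the groups.

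A cell enters mitosis when cyclin B builds up, binds the kinase Cdk1 and is switched on by Cdc25 phosphatases. Polo and Aurora kinases then build the spindle, kinetochore proteins hook chromosomes to it, and the spindle checkpoint holds the cell until every chromosome is attached. Cdc20 and the anaphase-promoting complex next mark cyclin B and securin for destruction, separase cuts the cohesin rings, and the central spindle directs the final cut between the daughter cells. Transcripts of most of these proteins are made late in the cell cycle. In dividing cells they are made under the MuvB complex with B-Myb and FoxM1. In cells that are not dividing, MuvB works with repressive partners. MuvB complexes bind a short promoter element named the cell cycle genes homology region (CHR), often found beside CCAAT boxes that bind NF-Y.

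Both elements were common in the promoters of the members. RefSeq sequence on GRCm38.p6, from 250 bases before to 50 bases after the annotated start, was at hand for 36 members and not for Kif20a, Cdc25c, Ccna2, Incenp, Foxm1, Tpx2, Spc24 and Aurkb. The CHR was searched as TTTGAA or TTCGAA on either strand, and the CCAAT box as CCAAT on either strand. A CHR was present in 29 of the 36 (80.6%), against 21.7% of 27025 genes with such a window. A CCAAT box was present in 28 of the 36 (77.8%), against 41.1% of all genes. Both were present in 25 (69.4%), against 8.61% of all genes. The CHR lay within 50 bases of the start in 27 members, a position that was not counted over all genes. Birc5, Mad2l1, Nuf2 and Plk4 held neither sequence in this window. These counts describe matching letters and do not show that a protein was bound.

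Stretches of 80 bases that end just before the start are printed for 8 members, 5′ to 3′ on the strand of the gene, with matches to either element in capitals. On the printed strand, ATTGG is a CCAAT box and TTCAAA a CHR read from the opposite strand. Cdc20 (chr4:118437344-118437423, minus strand), Ube2c (chr2:164769849-164769928, plus strand), Prc1 (chr7:80294396-80294475, plus strand) and Plk1 (chr7:122159355-122159434, plus strand) are shown because they were at least 1.5-fold higher at 32 µM of **1** than in DMSO + LPS. The CHR match of Plk1 lies after the start, outside the printed stretch. Cdk1 (chr10:69352913-69352992, minus strand), Espl1 (chr15:102296213-102296292, plus strand) and Kif11 (chr19:37376302-37376381, plus strand) are shown because they held both elements and did not pass the test there. Ccnb1 (chr13:100786487-100786566, minus strand) is shown because it passed the test and held no match to the CHR letters searched.
Cdc20: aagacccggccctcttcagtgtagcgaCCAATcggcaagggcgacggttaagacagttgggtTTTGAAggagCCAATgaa
Ube2c: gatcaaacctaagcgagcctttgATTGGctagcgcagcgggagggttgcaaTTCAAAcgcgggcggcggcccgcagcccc
Prc1: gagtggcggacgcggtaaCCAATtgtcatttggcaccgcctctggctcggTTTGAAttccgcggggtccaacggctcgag
Plk1: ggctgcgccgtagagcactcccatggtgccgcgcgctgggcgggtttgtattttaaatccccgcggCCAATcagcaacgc
Cdk1: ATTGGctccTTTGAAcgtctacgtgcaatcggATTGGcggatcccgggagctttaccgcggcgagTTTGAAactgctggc
Espl1: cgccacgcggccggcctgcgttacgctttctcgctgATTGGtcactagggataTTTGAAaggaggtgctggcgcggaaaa
Kif11: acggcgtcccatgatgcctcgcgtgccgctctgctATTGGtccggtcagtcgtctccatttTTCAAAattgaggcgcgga
Ccnb1: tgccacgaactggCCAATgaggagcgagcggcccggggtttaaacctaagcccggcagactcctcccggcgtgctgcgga

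**Figure D1:**
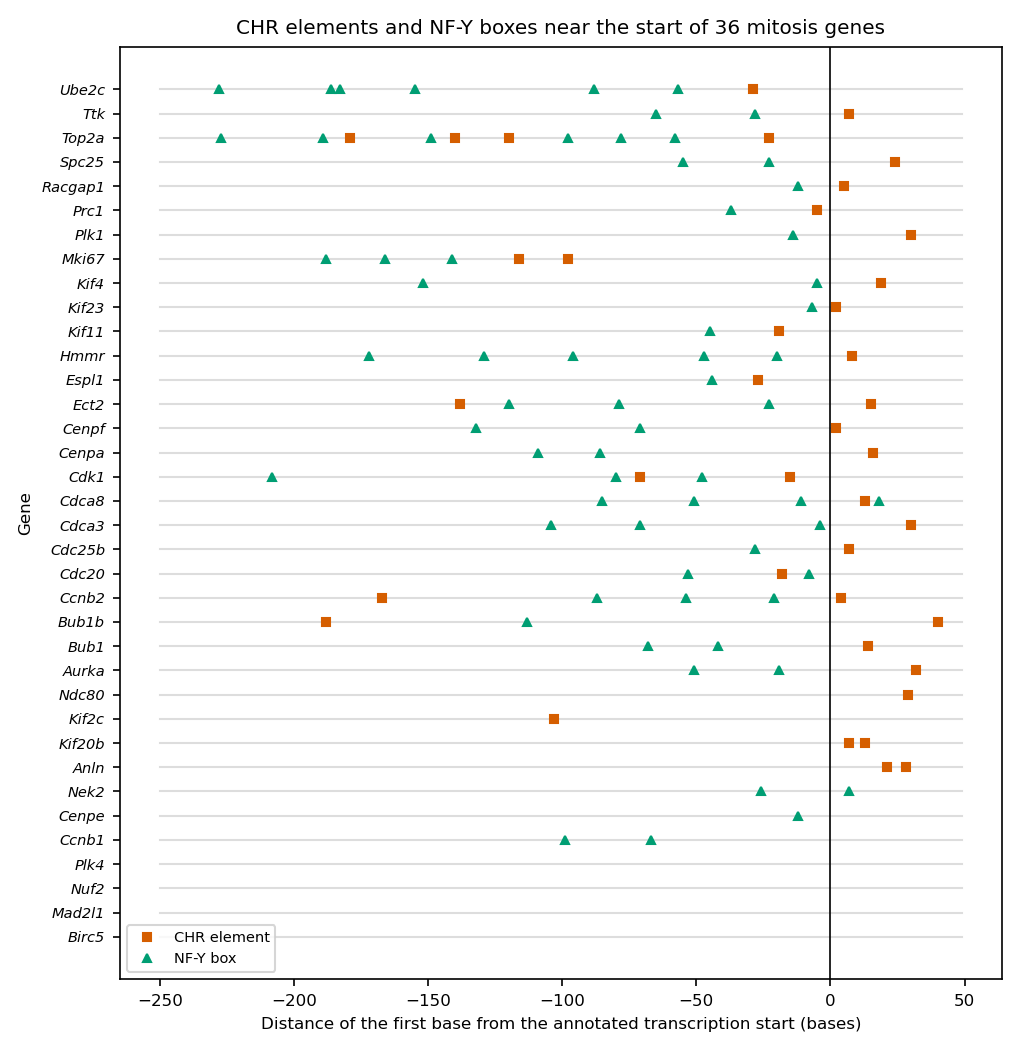
Positions of CHR and CCAAT matches in the promoter windows of the 36 members with RefSeq sequence, plotted as distance in bases from the annotated start. Most CHR matches sit close to the start, and 27 members have one within 50 bases of it.

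Library totals ran from 45966803 to 58976377 counts. All 8 macrophage markers examined were above 1 CPM in every library (counts-per-million, scaled by TMM library sizes), and markers of T and B cells had at most 15 counts. Replicate 1 at 10 µM carried 451 counts of Epcam, 200 of Cdh1, 183 of Krt14 and 127 of Krt5, which mark epithelial cells, and 160 of Col3a1, 86 of Col1a2 and 43 of Col1a1, which mark fibroblasts. Another fibroblast marker, Pdgfrb, had 21 counts there, within its range of 5 to 37 over all libraries. Replicate 1 at 3.2 µM carried 78 counts of Epcam, 25 of Cdh1 and 24 of Col3a1, while Epcam and Cdh1 had at most 2 counts in each of the other libraries. Krt5 had 1 count and Krt14 had 0 in replicate 1 at 3.2 µM. Replicate 2 at 32 µM held 2.83% of its counts in ribosomal RNA features, against 0.153% to 0.333% elsewhere. Results at 10 and 32 µM are therefore also given without these libraries, and the part of these features in the results was otherwise not tested.

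LPS lowered every member. The summed level of the 44 genes was 3759 and 4026 CPM in the DMSO libraries and 993.7 and 976.3 CPM in the DMSO + LPS libraries, so their share of all counts went from 0.421% and 0.451% to 0.0965% and 0.0947%. By edgeR's quasi-likelihood test, with Benjamini-Hochberg adjustment over all genes tested and a call at adjusted p below 0.05, 44 of 44 were lower with LPS, against 25.8% of all genes, and 0 were higher, against 25.2%. All 44 were also at least 1.5-fold lower, against 13.6% of all genes. The median log2 fold change was -2.03 (4.08-fold lower), beside 0.003 over all genes. In bulk RNA, fewer cells in mitosis and less of these transcripts per cell cannot be told apart.

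The size of the fall ranged widely. The largest was that of Cenpf, a kinetochore protein of the outer corona, at 77.90 and 99.83 CPM in DMSO and 11.74 and 10.71 CPM in DMSO + LPS. The fitted difference on the log2 scale was -2.98 ± 0.19 (SE; edgeR adjusted p = 5.19e-06), or 7.91-fold lower. Under the alternative settings given below it ran from -3.19 to -2.71, and that of Ccna2 from -3.02 to -2.78. Cenpf was therefore not the largest fall in every setting. The smallest was that of Plk4, the kinase that starts centriole copying, at 38.87 and 41.90 CPM in DMSO and 19.05 and 19.74 CPM in DMSO + LPS. This was 2.08-fold lower (log2 -1.06 ± 0.08, SE; edgeR adjusted p = 1.27e-05). For Cenpf and Plk4, as for every member, the lower of the DMSO libraries stood above the higher of the DMSO + LPS libraries. That pattern was held by 38.7% of all genes.

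Among the cyclins and the Cdk1 switch, 6 of 6 fell. Ccna2, which encodes cyclin A and acts in S phase and early mitosis, was at 95.16 and 97.91 CPM in DMSO and at 14.02 and 13.50 CPM in DMSO + LPS, 7.01-fold lower. Ccnb1, the main mitotic cyclin, was at 117.0 and 107.1 CPM and then 37.90 and 38.46 CPM, 2.93-fold lower. Cdk1, the kinase that both cyclins switch on, was at 83.34 and 77.21 CPM and then 28.75 and 29.60 CPM, 2.75-fold lower. Cyclin A thus fell further than cyclin B1 or the kinase in these libraries, although the difference between genes was not tested. The other 3 members of this group, Ccnb2, Cdc25b and Cdc25c, were 3.51- to 3.89-fold lower.

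The other roles fell with them. Plk1, the Polo kinase that acts from mitotic entry to cytokinesis, went from 72.30 and 73.84 CPM to 11.86 and 12.78 CPM (5.93-fold lower), while Aurka, Nek2 and Plk4 were 2.08- to 2.93-fold lower. The motors and assembly factors of the spindle fell by a median of 4.67-fold, led by Kif11, the motor that pushes spindle poles apart, at 94.31 and 112.8 CPM and then 14.65 and 14.46 CPM (7.11-fold lower). Mki67, the Ki-67 protein that coats mitotic chromosomes and is widely used as a proliferation marker, went from 357.8 and 436.4 CPM to 62.12 and 53.03 CPM (6.89-fold lower). Top2a, the topoisomerase that untangles sister chromosomes, was 5.28-fold lower. The median falls were 4.53-fold for the 7 centromere and kinetochore genes, 4.13-fold for the 6 genes of the central spindle and cytokinesis, 3.79-fold for the 4 checkpoint genes, 3.76-fold for the 4 genes of protein destruction and separase, and 3.24-fold for the 4 subunits of the chromosomal passenger complex. Within that complex, which corrects faulty attachments, the kinase Aurkb was 4.92-fold lower and its scaffold Incenp 2.31-fold lower. Foxm1, the transcription factor of late cell cycle genes, was 2.85-fold lower.

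Levels can be compared between genes only after division by length, here as CPM per kilobase of annotated exons. That length joins the exons of all annotated transcripts of a gene. It was 8225 bases for Prc1, whose longest transcript has 3645, and 1868 bases for Cdc20, whose longest has 1793. The order below therefore depends on the length used. On that scale Cdc20 was highest in DMSO, at 52.6 CPM per kb, followed by Incenp at 50.5, Mki67 at 39.5 and Ccnb2 at 36. Cdc25c was lowest at 2.82 CPM per kb. In DMSO + LPS, Incenp was highest at 21.9 CPM per kb, followed by Cdc20 at 15 and Aurka at 14.5, and Cenpf was lowest at 0.727. Mki67 stood at 5.72 CPM per kb there, below Incenp, Cdc20, Aurka, Tpx2, Ube2c, Ccnb2, Ccnb1, Top2a, Bub1b and Cdk1.

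**Figure D2:**
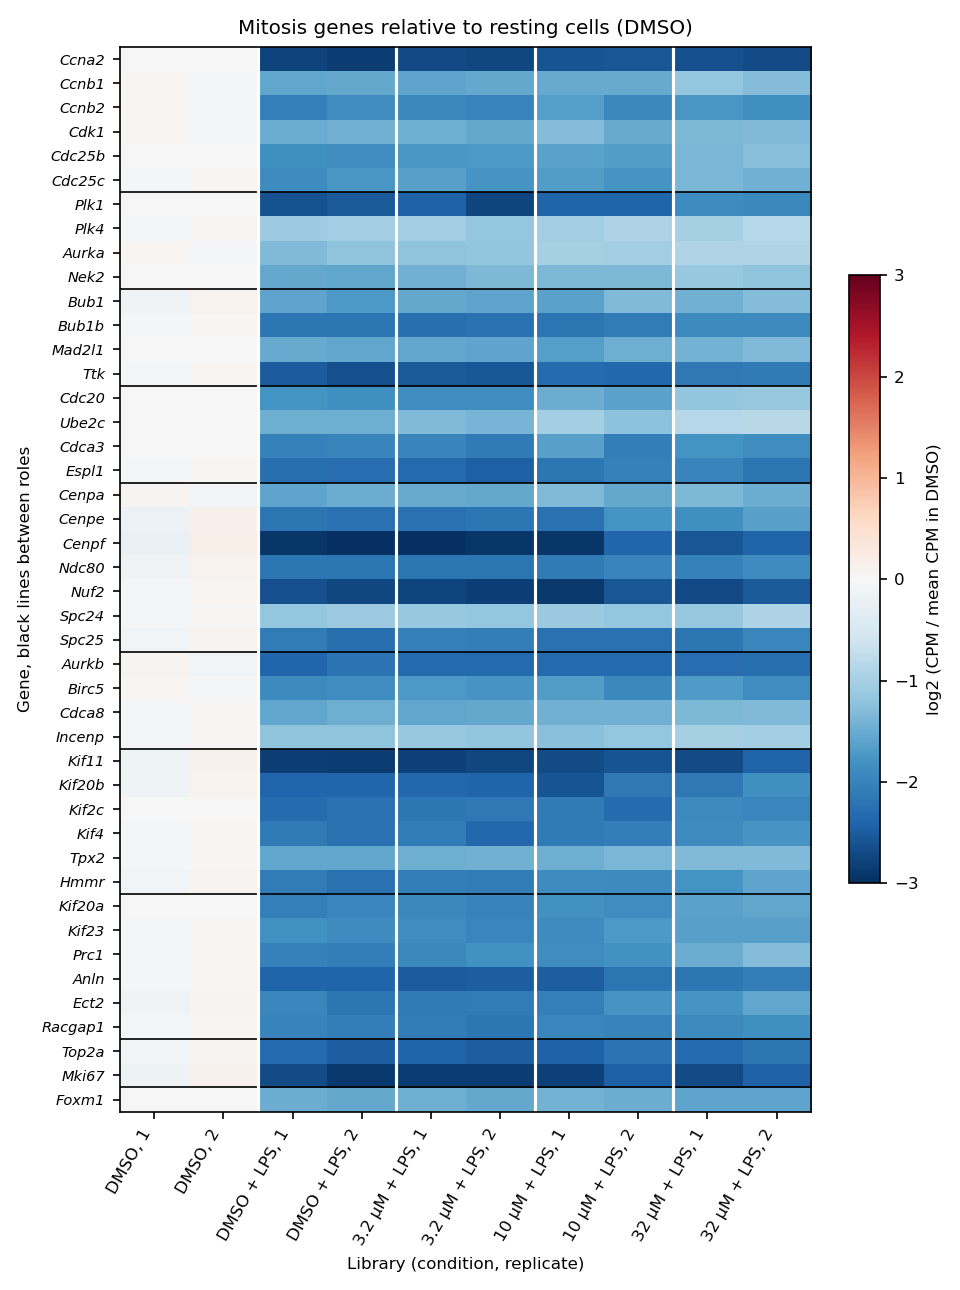
Level of each of the 44 members in each of the 10 libraries as log2 CPM relative to the mean of the DMSO libraries, with genes grouped by role. The DMSO libraries stand above the other 8 for every gene, and the 32 µM libraries stand above DMSO + LPS for 36 genes.

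Compound **1** at 32 µM raised a subset of the members above DMSO + LPS. The summed level was 1178 and 1227 CPM at 32 µM, against 993.7 and 976.3 CPM in DMSO + LPS. By edgeR's test 15 of 44 were higher, against 4.06% of all genes, and 0 were lower, against 5.72% of all genes. Without adjustment 31 members had p below 0.05, all of them higher, against 10.8% of all genes, and DESeq2 called 18 higher, against 4.91% of all genes by that tool, and 0 lower, against 6.6%. The fitted difference was positive for 43 of 44, against 51.7% of all genes, and both 32 µM libraries stood above both DMSO + LPS libraries for 36, against 25.7% of all genes. The sizes were small. The median log2 fold change was 0.26 (1.20-fold), beside 0.008 over all genes, and 4 members were at least 1.5-fold higher, against 1.27% of all genes.

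Those 4 were Prc1, Plk1, Cdc20 and Ube2c. Prc1 (chr7:80294450-80316259), which bundles the antiparallel microtubules of the central spindle, was at 27.84 and 27.02 CPM in DMSO + LPS and at 40.79 and 46.14 CPM at 32 µM, a log2 fold change of 0.66 ± 0.07 (SE; edgeR adjusted p = 0.000915). Cdc20 (chr4:118432901-118437352), the activator of the anaphase-promoting complex, was at 28.50 and 27.47 CPM and at 43.14 and 44.88 CPM, a log2 fold change of 0.65 ± 0.05 (SE; edgeR adjusted p = 0.000179), which was the smallest adjusted p of any member. For both genes the 32 µM libraries stood well clear of the DMSO + LPS libraries and below the DMSO libraries, which read 110.4 and 116.8 CPM for Prc1 and 97.86 and 98.81 CPM for Cdc20. Plk1 (chr7:122159439-122169873) was at 11.86 and 12.78 CPM and at 19.62 and 19.16 CPM, a log2 fold change of 0.66 ± 0.10 (SE; edgeR adjusted p = 0.00452). Ube2c (chr2:164769898-164778822), the ubiquitin-conjugating enzyme that works with the anaphase-promoting complex, was at 26.46 and 26.34 CPM and at 40.20 and 40.72 CPM, a log2 fold change of 0.62 ± 0.07 (SE; edgeR adjusted p = 0.00103). In the annotation, 11 of the 44 members share exon bases with a gene on the opposite strand, and 2, Foxm1 and Top2a, with a gene on the same strand. The shared part is 11.1% of the exon bases of Prc1, 2.84% of Cdc20, 7.09% of Plk1 and 22.8% of Ube2c. It is 29.3% of Kif20a, 15.1% of Kif4, 12.7% of Cdc25c, 12.5% of Ccna2, 6.6% of Nek2, 4.48% of Cdca8 and 2.47% of Cdc25b. The libraries kept strand, but the strand setting of the counting is not given in the sources used here, so the share of counts from those genes is unknown.

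**Figure D3:**
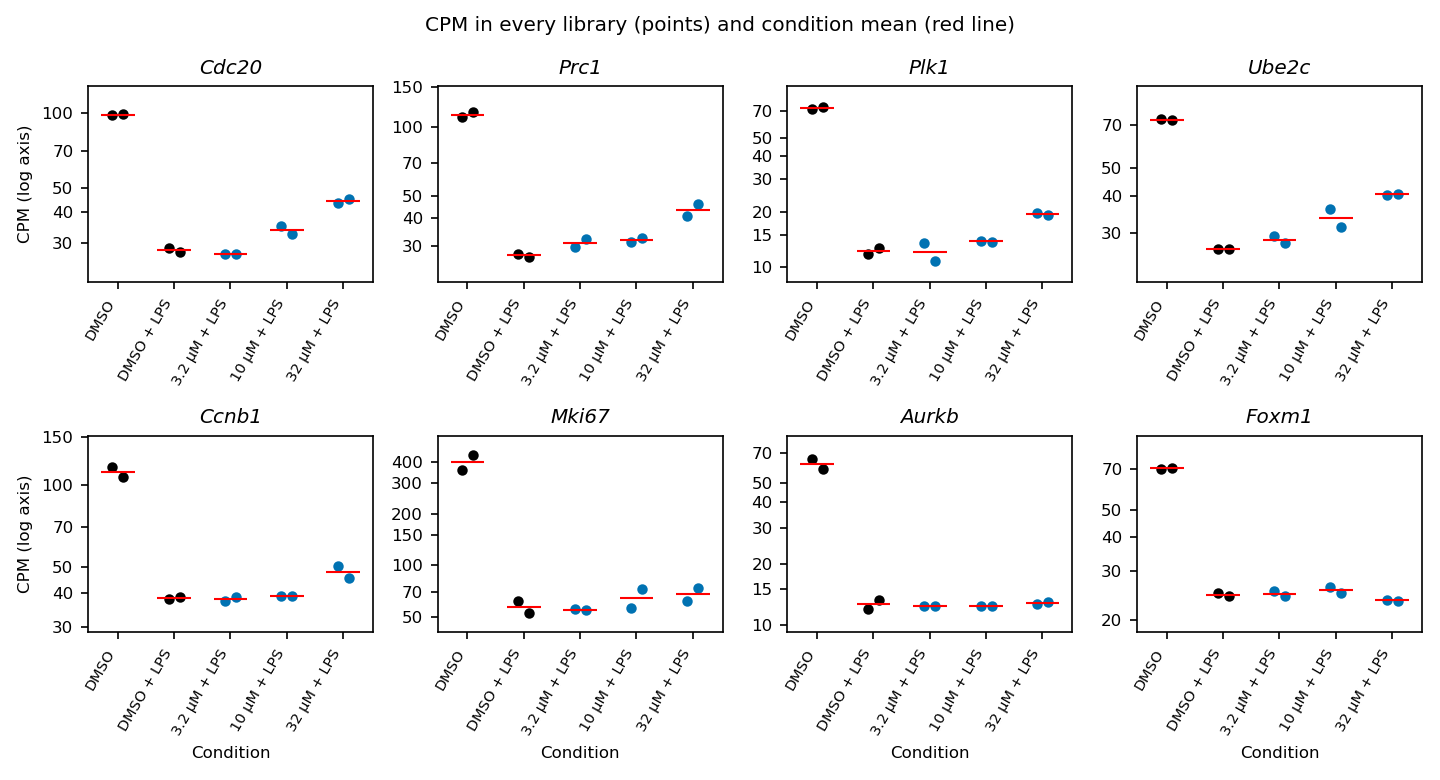
CPM in each library for Cdc20, Prc1, Plk1, Ube2c, Ccnb1, Mki67, Aurkb and Foxm1, with 1 point per library in the 5 groups. The 32 µM points lie above both DMSO + LPS points for the first 5 genes and overlap them for Mki67 and Aurkb, and they lie just below them for Foxm1.

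The members that passed at 32 µM came from 6 of the 10 roles. Among the cyclins and the Cdk1 switch, 3 of 6 passed. Cdc25b, the phosphatase that starts Cdk1 activation at the centrosome, was at 10.86 and 10.73 CPM in DMSO + LPS and at 15.14 and 16.13 CPM at 32 µM (1.45-fold; edgeR adjusted p = 0.000808). Ccnb1 was at 37.90 and 38.46 CPM and at 50.44 and 45.43 CPM (1.26-fold; edgeR adjusted p = 0.0177). Cdc25c was 1.33-fold higher (edgeR adjusted p = 0.0391). That call did not hold without the count filter, by DESeq2 or with a replicate block, while its log2 fold change stayed between 0.35 and 0.48 over the alternatives. Neither library of **1** overlapped the controls for these genes. Cdk1 itself, at 28.75 and 29.60 CPM and then 31.76 and 32.14 CPM, did not pass (1.10-fold; edgeR adjusted p = 0.379), and neither did Ccna2, at 14.02 and 13.50 CPM and then 15.51 and 14.95 CPM (edgeR adjusted p = 0.134), or Ccnb2 (1.12-fold).

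Of the Polo, Aurora A and NIMA kinases, 3 of 4 passed. Besides Plk1, these were Nek2, which splits the centrosomes, at 20.29 and 20.06 CPM and then 26.93 and 25.48 CPM (1.3-fold; edgeR adjusted p = 0.00364), and Aurka, which matures the spindle poles, 1.27-fold higher (edgeR adjusted p = 0.00742). Plk4 did not pass, at 1.09-fold. In the spindle checkpoint 2 of 4 passed. The checkpoint kinase Ttk was at 5.763 and 5.175 CPM and then 7.296 and 7.432 CPM (1.34-fold; edgeR adjusted p = 0.0122), and Bub1b, the BubR1 subunit that holds Cdc20 in check, was at 27.61 and 27.34 CPM and then 33.35 and 33.20 CPM (1.21-fold; edgeR adjusted p = 0.0145). Bub1 and Mad2l1 read 1.21-fold and 1.13-fold and did not pass. In protein destruction and separase, Cdc20 and Ube2c passed, whereas Cdca3 and Espl1, the separase itself, both read 1.14-fold and did not.

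Among the spindle motors and assembly factors 3 of 6 passed. Hmmr, a microtubule-binding protein of the spindle poles, was at 16 and 14.57 CPM and then 19.95 and 23.14 CPM (1.41-fold; edgeR adjusted p = 0.0109). Kif2c, the kinesin that takes microtubules apart at the kinetochore, was 1.27-fold higher, and Tpx2, the activator of Aurora A on the spindle, was 1.19-fold higher at 59.16 and 59.17 CPM against 49.84 and 49.77 CPM. Kif11, Kif20b and Kif4 read 1.23- to 1.31-fold, above both DMSO + LPS libraries in each case, and did not pass. Of the central spindle and cytokinesis genes, Prc1 and Kif20a passed. Kif20a, the kinesin that brings the passenger complex and Plk1 to the central spindle, was at 21.52 and 22.93 CPM and then 29.20 and 30.08 CPM (1.33-fold; edgeR adjusted p = 0.00214), with its exons partly shared with Cdc23 on the opposite strand. Anln, Ect2, Kif23 and Racgap1 read 1.12- to 1.31-fold and did not pass.

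No member passed in the other 4 roles. Over the 7 centromere and kinetochore genes the median was 1.09-fold, and 3 had an unadjusted p below 0.05. Cenpe, the kinesin that carries chromosomes to the spindle equator, read 22.13 and 21.68 CPM and then 28.36 and 32.80 CPM (1.40-fold; edgeR adjusted p = 0.114), and Cenpf read 11.74 and 10.71 CPM and then 15 and 16.92 CPM (1.42-fold; edgeR adjusted p = 0.153). Both 32 µM libraries stood above both DMSO + LPS libraries for each gene. When only the 4 libraries compared were fitted, Cenpe and Cenpf passed and 7 of the 15 members, Ccnb1, Cdc25c, Bub1b, Ttk, Kif2c, Tpx2 and Hmmr, did not. Of the passenger complex, Incenp read 95.22 and 94.10 CPM and then 108.7 and 107.2 CPM (1.14-fold; edgeR adjusted p = 0.0521), while Aurkb read 11.95 and 13.25 CPM and then 12.71 and 13.01 CPM (1.02-fold; edgeR adjusted p = 0.901), with overlapping libraries. Mki67 also overlapped, at 62.12 and 53.03 CPM and then 61.76 and 74.35 CPM (1.18-fold; edgeR adjusted p = 0.439). Top2a read 63.67 and 58.29 CPM and then 64.35 and 72.16 CPM (1.12-fold; edgeR adjusted p = 0.411). Foxm1 was the 1 member with a negative value, at 25.01 and 24.43 CPM and then 23.62 and 23.54 CPM (log2 -0.07 ± 0.05, SE; edgeR adjusted p = 0.531).

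The number of calls at 32 µM fell when any 1 of the 4 libraries compared was left out, which also leaves fewer residual degrees of freedom. It was 8 without replicate 1 of DMSO + LPS, 8 without replicate 2 of DMSO + LPS, 9 without replicate 1 at 32 µM and 9 without replicate 2 at 32 µM, the library with the higher ribosomal share. The median of the members moved little, between 0.23 and 0.29 over the 11 alternatives of fit, scaling, filter and left-out library. Single members differed in how far they moved over them. The log2 fold change ran from 0.10 to 0.37 for Mki67 and from 0.23 to 0.54 for Kif20b, but from 0.62 to 0.68 for Cdc20. Cdc20, Ube2c, Prc1, Cdc25b, Nek2 and Kif20a passed in the main test and in each of those alternatives. Long transcripts also differed between replicates in 4 of the 5 groups. Across the 44 members, the difference of replicate 2 from replicate 1 rose with transcript length at 10 µM (Spearman's rho 0.66), in DMSO (0.55) and at 32 µM (0.41), and fell with it in DMSO + LPS (-0.44), while rho was 0.05 at 3.2 µM. These are descriptions across genes of the same libraries, which are not independent replicates. At 10 µM the largest such difference was that of Cenpf, 0.53 on the log2 scale. With a per-library score of short transcripts in the fit, an alternative chosen after seeing the data, 31 members were higher at 32 µM, and 12.5% of all genes were higher under the same setting, against 4.06% without the score.

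**Figure D4:**
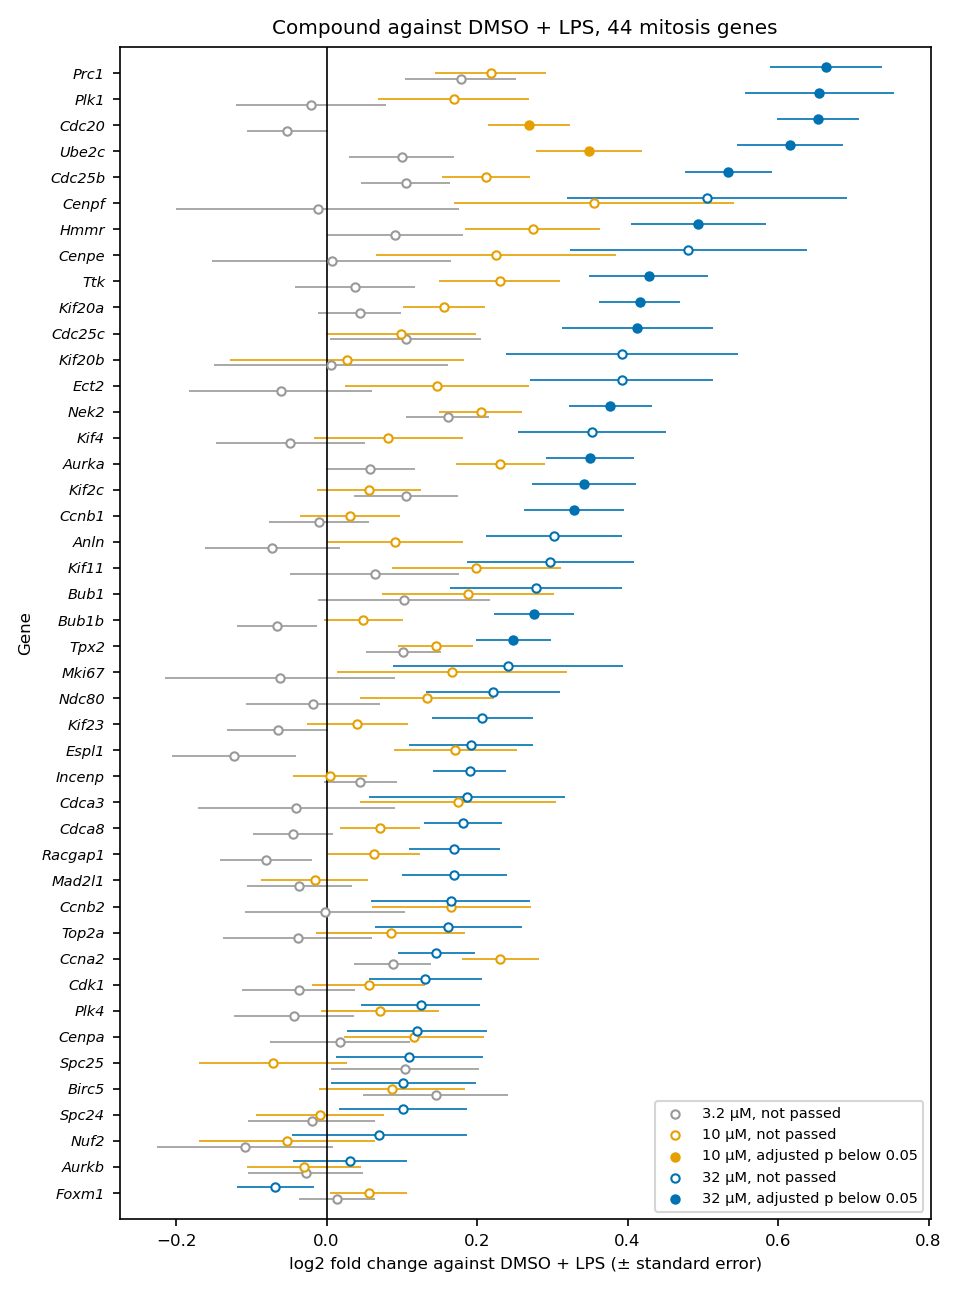
Log2 fold change against DMSO + LPS at 3.2, 10 and 32 µM of **1** for each of the 44 members, with the members that passed at 32 µM picked out. The median moves from -0.006 at 3.2 µM through 0.12 at 10 µM to 0.26 at 32 µM.

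At 10 µM the differences were smaller. Only Cdc20 and Ube2c passed, 2 of 44 higher against 0.967% of all genes, and 0 were lower, against 1.7% of all genes. Neither reached 1.5-fold, as 0.282% of all genes did. Cdc20 was at 35.05 and 32.41 CPM, against 28.50 and 27.47 CPM in DMSO + LPS (log2 0.27 ± 0.05, SE; edgeR adjusted p = 0.0464). Ube2c was at 36.02 and 31.24 CPM, against 26.46 and 26.34 CPM (log2 0.35 ± 0.07, SE; edgeR adjusted p = 0.0468). The libraries of the groups did not overlap for either gene, and for both the higher 10 µM value was that of replicate 1, the library with the epithelial and fibroblast counts. Neither passed without that library, and 0 of 44 passed without either one of the DMSO + LPS libraries, while the log2 fold changes stayed at or above 0.21 for Cdc20 and 0.24 for Ube2c over all alternatives. Without adjustment 11 members had p below 0.05, all higher, against 5.81% of all genes, and DESeq2 called 2 higher, against 1.5% of all genes. The median log2 fold change was 0.12, beside 0.016 over all genes, and it ran from 0.06 to 0.15 over the alternatives. The extremes were Cenpf, at 11.76 and 16.99 CPM (log2 0.36 ± 0.19, SE; edgeR adjusted p = 0.541), and Spc25, a subunit of the Ndc80 complex, at 7.050 and 7.036 CPM against 7.824 and 6.964 CPM (log2 -0.07 ± 0.10, SE; edgeR adjusted p = 0.900). Both 10 µM libraries of Cenpf stood above DMSO + LPS, replicate 1 by little, and the libraries of Spc25 overlapped.

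At 3.2 µM no member passed in edgeR (0 of 44, against 0% of all genes in either direction), 2 had an unadjusted p below 0.05, both higher, against 1.77% of all genes, and DESeq2 called 0, against 0.141% of all genes higher and 0.106% lower. Those 2 were Nek2, at 21.83 and 23.28 CPM against 20.29 and 20.06 CPM, and Prc1, at 29.66 and 32.40 CPM against 27.84 and 27.02 CPM, which also had the highest fitted value (log2 0.18 ± 0.07, SE; edgeR adjusted p = 0.999). Both libraries lay above DMSO + LPS for both genes. The lowest value was that of Espl1, at 13.35 and 12.36 CPM against 14.09 and 13.91 CPM (log2 -0.12 ± 0.08, SE; edgeR adjusted p = 0.999). The fitted difference was positive for 21 members and negative for 23, against 51.7% and 48.2% of all genes, with a median of -0.006.

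The 3 doses were compared with the same DMSO + LPS libraries, so their values are not independent of each other. The folds of 32 against 10 µM do not use those libraries, although the spread behind their p-values was estimated over all 10. In it 4 members were higher at 32 µM, against 0.804% of all genes, and 0 were lower, against 1.95% of all genes. These were Cdc20 (1.3-fold; edgeR adjusted p = 0.00873), Prc1 (1.36-fold; edgeR adjusted p = 0.0188), Cdc25b (1.25-fold; edgeR adjusted p = 0.0284) and Plk1 (1.40-fold; edgeR adjusted p = 0.0485). Plk1 was at 13.91 and 13.78 CPM at 10 µM and at 19.62 and 19.16 CPM at 32 µM, and the groups of libraries did not overlap for any of the 4. None reached 1.5-fold, as 0.169% of all genes did. Foxm1 had the lowest value, at 26.31 and 25.09 CPM and then 23.62 and 23.54 CPM (log2 -0.12 ± 0.05, SE; edgeR adjusted p = 0.372).

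The number of calls between the higher doses also fell with fewer libraries in the fit. There were 0 when only the 4 libraries compared were fitted, 0 without replicate 2 at 32 µM, 2 without replicate 1 at 32 µM and 2 without replicate 1 at 10 µM. Without replicate 2 at 10 µM there were 3. Over the alternatives the log2 fold changes stayed between 0.47 and 0.50 for Plk1, 0.33 and 0.44 for Cdc20, 0.28 and 0.37 for Cdc25b, and 0.35 and 0.53 for Prc1. DESeq2 called 7 higher, against 1.33% of all genes by that tool. Group means rose from DMSO + LPS through 10 to 32 µM for 36 of 44 members, against 25.6% of all genes. They fell in that order for 0, against 22.9% of all genes. The 3.2 µM means were not part of that order, and 23 members had a negative fitted difference from DMSO + LPS at that dose.

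Even at 32 µM of **1** every member remained below its level in resting cells. Against DMSO, 44 of 44 were lower by edgeR's test, against 25.1% of all genes, and 0 were higher, against 25.7%, with a median log2 fold change of -1.71 (3.26-fold lower). Ccna2 was furthest below, at 15.51 and 14.95 CPM against 95.16 and 97.91 CPM (log2 -2.66 ± 0.05, SE; edgeR adjusted p = 1.09e-08). Ube2c was nearest, at 40.20 and 40.72 CPM against 72.97 and 72.71 CPM (log2 -0.85 ± 0.07, SE; edgeR adjusted p = 2.4e-05). Cdc20 was 2.23-fold below resting cells at 32 µM and 3.51-fold below in DMSO + LPS, and Prc1 2.61-fold and 4.14-fold. Aurkb was 4.82-fold below at 32 µM and 4.92-fold below in DMSO + LPS, and Foxm1 2.98-fold and 2.85-fold. These folds share the DMSO libraries.

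Other genes of the cell cycle were read in the same fit. Of 73 further mitotic genes, 67 were lower with LPS and 2 were higher, with a median log2 fold change of -1.83, against 25.8% lower and 25.2% higher over all genes. The 2 were Zwint, a kinetochore protein that docks the checkpoint complex, at 104 and 102 CPM in DMSO and 238 and 238 CPM in DMSO + LPS (log2 1.21 ± 0.04, SE; edgeR adjusted p = 1.11e-07), and Zw10, a subunit of the RZZ checkpoint complex, with a log2 fold change of 0.24. Both lay opposite to all 44 members. All 27 S phase genes examined, which copy DNA or supply nucleotides, were lower with LPS, with a median of -1.20. Of 18 genes of MuvB, B-Myb, the pocket proteins and E2F factors, 12 were lower and 0 were higher, among them the activators Mybl2 (log2 -1.95) and E2f2 (log2 -2.26) and the atypical repressor E2f8 (log2 -2.40).

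**Figure D5:**
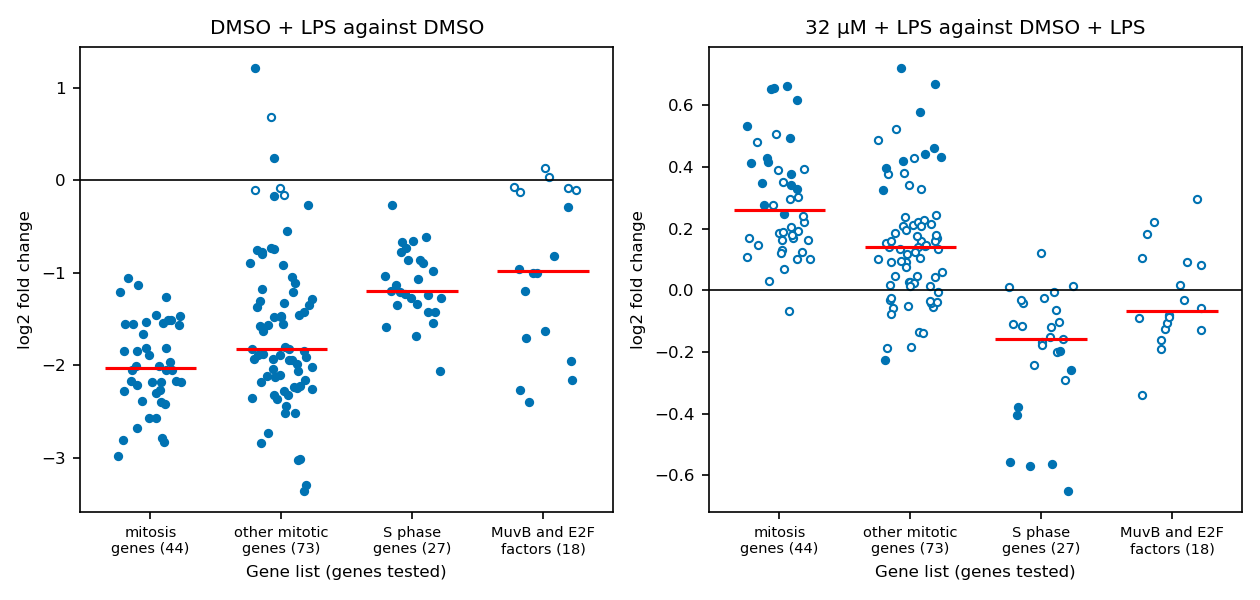
Log2 fold changes of the 44 members, 73 other mitotic genes, 27 S phase genes and 18 MuvB, B-Myb, pocket protein and E2F genes in the comparisons, with each list's median. All lists have negative medians with LPS, and at 32 µM the medians are 0.26, 0.14, -0.16 and -0.07 in that order.

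At 32 µM of **1** the lists had medians of different sign. Of the 73 further mitotic genes, 9 were higher than in DMSO + LPS and 1, Zw10, was lower, with a median log2 fold change of 0.14. The smallest p-values among them were those of Kif18b, a kinesin that shortens microtubules, at 8.10 and 8.37 CPM and then 12.4 and 12.2 CPM (log2 0.58 ± 0.08, SE; edgeR adjusted p = 0.00214), Dlgap5, a spindle assembly factor, with a log2 fold change of 0.42, and Nusap1, a microtubule-bundling protein, with 0.72. Of the 27 S phase genes, 8 were lower and 0 were higher, with a median of -0.16. Over all genes, 4.06% were higher and 5.72% were lower, with a median of 0.008, and the difference between lists was not tested. Mcm6, a subunit of the replicative helicase, was at 64.3 and 67.2 CPM in DMSO + LPS and at 39.8 and 44 CPM at 32 µM (log2 -0.65 ± 0.06, SE; edgeR adjusted p = 0.00034). Ccne1, the cyclin of S phase entry, was 1.47-fold lower, and Cdc6, which loads the helicase, was 1.48-fold lower. None of the 18 MuvB and E2F genes passed in edgeR at 32 µM, and their median was -0.07. In either direction, 2 of them had an unadjusted p below 0.05, against 10.8% of all genes in the higher direction alone. Mybl2 read 14.6 and 14.9 CPM and then 13.7 and 13.4 CPM (edgeR adjusted p = 0.282). At 10 µM, Kif18b was the only one of the further mitotic genes that passed (log2 0.39 ± 0.08, SE; edgeR adjusted p = 0.0392), against 0.967% of all genes. None of the 27 S phase genes passed in edgeR at 10 µM (0 calls), and 4 were lower at an unadjusted p below 0.05, against 6.24% of all genes.

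The promoter elements were found both in members that passed at 32 µM and in members that did not, and this split was not tested. A CHR was present in 10 of the 12 passing members with RefSeq sequence and in 19 of the 24 others, and a CCAAT box in 11 of the 12 and in 17 of the 24. Cdc20, Ube2c and Prc1, printed above with a CHR and a CCAAT box, shared that arrangement with Cdk1, Espl1 and Kif11. Plk1, the other member past 1.5-fold, held its CCAAT box before the start and its match to the CHR letters searched after it. Across lists, a CHR was present in 57.1% of the further mitotic genes with sequence, in 42.9% of the MuvB and E2F genes and in 25% of the S phase genes, while a CCAAT box was present in 61.9%, 57.1% and 75% of them.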

How the data were processed

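Poly(A)-selected, directional libraries were sequenced by the authors, who deposited whole-number counts per Ensembl gene. The submitters' processing notes name mm10, Trimmomatic, FastQC, STAR and DESeq2. The counting tool, strand setting and annotation are not given in the sources used here. Symbols, positions and exon lengths came from GENCODE M21 on GRCm38, and all 44 members matched. Promoter sequence came from RefSeq.

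Counts of all 10 libraries were fitted with edgeR 4.0.16 (R 4.3.3) with 1 mean per group, TMM scaling, filterByExpr at a minimum count of 10 and the quasi-likelihood F test with 5 residual degrees of freedom. Adjusted p (Benjamini-Hochberg over 14172 genes) below 0.05 was a call. CPM used TMM library sizes. An exact permutation test of 2 against 2 libraries cannot give a p below 0.333. At the lowest member count, 185, counting error alone is 7.35%. The scripts were tested on simulated data.

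The members and lists were chosen with earlier results of these data known. Values per library are given for the 1 or 2 smallest p-values of a role at 32 µM, the extremes of each comparison and 7 widely used genes, and from other lists for at most 3 genes. Alternatives were DESeq2 1.42.0, a 1.5-fold minimum, scaling by DESeq2's size factors or by totals, testing without the filter, fitting only the 4 libraries compared, a replicate block, each library left out and a short-transcript score. The closing section gives the numbers of calls that they moved.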

Additional observations from a re-analysis of the deposited data

How the results depend on the processing

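LPS against DMSO and 32 µM against DMSO gave 44 lower and 0 higher members under every alternative tried, and 0 members were lower at any dose against DMSO + LPS or between 32 and 10 µM. With library size alone, the median over all genes moved by -0.204 with LPS and the median of the members was -2.24. The numbers of higher members depended on the setting. The main test gave 15 at 32 µM, 2 at 10 µM and 4 for 32 against 10 µM. Requiring 1.5-fold as well gave 4, 0 and 0. Without a count filter there were 14, 1 and 3, with DESeq2's size factors 15, 2 and 4, with library size alone 15, 2 and 3, and by the DESeq2 Wald test 18, 2 and 7. Fitting only the 4 libraries compared gave 10, 0 and 0, and the short-transcript score, chosen after seeing the data, gave 31, 13 and 11 (with 12.5%, 5.48% and 3.92% of all genes higher), and the cause was not tested. Leaving out 1 library, which leaves its group with a lone sample assumed to vary like the others, gave 8 to 9 at 32 µM, 0 to 2 at 10 µM and 0 to 3 for 32 against 10 µM. The replicate block gave 17, 2 and 4 (at 32 µM it lost Cdc25c and gained Cenpe, Incenp and Anln). The correlations of same-numbered samples' deviations ran from 0.104 to 0.573 for the 6 pairs of groups without DMSO + LPS and from -0.169 to -0.066 for the 4 pairs with it. They were not over 0.1 in every pair, so the numbers were not taken to pair the samples. At 3.2 µM the count was 0 under every alternative. Of 2904 values of single members under alternatives, 63 lost and 49 gained a call and 0 turned direction among called ones. Among those not called, the sign turned in 3 cases at 32 µM, 26 at 10 µM, 38 at 3.2 µM and 29 for 32 against 10 µM.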
